A study of Mus musculus with 32 samples.

Results

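The genes described are 10 enzymes and chaperones that modify and cross-link collagen, chosen by name: the lysyl oxidases Lox, Loxl1, Loxl2, Loxl3 and Loxl4, the lysyl hydroxylases Plod1, Plod2 and Plod3, the prolyl 4-hydroxylase subunit P4ha1, and the collagen chaperone Serpinh1. All 10 were among the 53801 gene IDs of the tables and among the 12817 genes tested. RNA came from quadriceps muscle of wild-type (WT) mice and of Col6a2-/- mice, homozygous for the allele Col6a2 tm1(KOMP)Vlcg, which carry it in every tissue. Mice were 5 or 25 weeks old and of either sex, with 4 mice and 4 libraries in each of the 8 groups. The submitters describe a knockout strain made on C57BL/6N and crossed to C57BL/6J for 5 generations, with WT and Col6a2-/- mice both bred from heterozygous parents. RNA was extracted from cryosections of frozen muscle, so fibres, connective tissue, vessels and blood-derived cells share each library. The series title places the study in the control of TGFβ by collagen VI, a microfibrillar collagen of the matrix around muscle fibres.

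Collagen chains are modified inside the cell before they leave it. Prolyl 4-hydroxylases stabilise the triple helix, lysyl hydroxylases modify the lysines that later form cross-links, and Serpinh1, also called HSP47, binds the folded procollagen in the endoplasmic reticulum. After secretion, the copper-dependent lysyl oxidases oxidise lysines and hydroxylysines of collagen and elastin, and the products join neighbouring molecules. In muscle these steps set much of the stiffness of connective tissue, and PLOD2 and lysyl oxidases are widely studied in fibrosis.

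Values are the authors' TPM, a level scaled for gene length, so levels of different genes can be set side by side. Changes are given on the log2(TPM + 1) scale with their standard error (SE) from limma, fitted over all 12817 genes and all 32 libraries. A gene is called, and said to have risen or fallen, where its Benjamini-Hochberg adjusted p was under 0.05. Col6a2 itself lay between 6.60 and 51.2 TPM in the 16 WT libraries and between 0 and 0.171 TPM in the 16 Col6a2-/- libraries. Mitochondrial genes took 31.9 to 46.9% of the TPM of a library and Rn7s genes 20.8 to 30.5%, and inferred depth varied from 6.78 to 13.7 on a relative scale. Depth did not overlap between the ages in WT males (10.3 to 12.9 at 5 weeks, 6.78 to 9.44 at 25 weeks). In WT females it did (7.29 to 12.7 and 6.87 to 10.4). In 5-week Col6a2-/- males it ran from 8.19 to 11.4. Some counts with depth as a covariate are in the last section. Across all genes the median change by genotype was 0.15 at 5 weeks and 0.08 at 25 weeks, so changes are to be read against those shifts. Of the genes called by genotype, 91.6% were higher in Col6a2-/- at 5 weeks and 95% at 25 weeks. With size factors from medians of ratios these shares were 47.9% and 51.5%, and with quantile normalization 45.8% and 57.0%.

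Several libraries stood apart for the whole set of enzymes. In the 5-week Col6a2-/- females, replicate 2 held the highest and replicate 4 the lowest value of the group for all 10 members. In the 5-week Col6a2-/- males replicate 1, and in the 25-week WT males replicate 4, held the highest value for all 10. Replicates 1, 2 and 3 of the 25-week WT males held the 3 highest mitochondrial shares of all 32 libraries (44.6, 44.9 and 46.9%) and the 3 lowest numbers of genes at 1 TPM or more, 10399 to 10611, while replicate 4 had 32% and 10877. These males are the WT side of the genotype results in 25-week males and the later age in the results on age by sex. After rescaling without mitochondrial and Rn7s genes, Loxl1 and Loxl2 stayed called by genotype in 25-week males, Plod1 and Serpinh1 did not, and no member was called for age by sex. Calls that appear once the first pair, replicates 2 and 4 of the 5-week Col6a2-/- females, is left out are given beside the result. That pair was picked after seeing the data, by the values of these same members. Leaving out the highest and lowest library of a group narrows the members' spread, so such calls are no added support. The other libraries named here were not left out as a pair.

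The sequences just before the gene starts are shown for Plod1, P4ha1 and Serpinh1, which stand for the 3 kinds of intracellular step. They are the 250 bases upstream of the RefSeq start on GRCm38.p6, on the strand of the gene, with each ACGTG or GCGTG in capitals in either orientation. These 5 letters are the core that hypoxia-inducible factors bind, and P4ha1 and Plod2 are textbook hypoxia targets.
Plod1, chr4:147936777-147937026, minus strand: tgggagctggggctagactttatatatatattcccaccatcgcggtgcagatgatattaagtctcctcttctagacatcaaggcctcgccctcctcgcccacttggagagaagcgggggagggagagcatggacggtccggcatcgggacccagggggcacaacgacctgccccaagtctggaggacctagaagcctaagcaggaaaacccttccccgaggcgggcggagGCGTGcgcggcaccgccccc
P4ha1, chr10:59323046-59323295, plus strand: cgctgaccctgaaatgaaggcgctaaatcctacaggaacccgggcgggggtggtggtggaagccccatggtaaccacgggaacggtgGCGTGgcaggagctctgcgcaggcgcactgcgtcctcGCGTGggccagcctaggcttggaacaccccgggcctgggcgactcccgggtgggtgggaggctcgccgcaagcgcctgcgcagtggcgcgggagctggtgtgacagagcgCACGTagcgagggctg
Serpinh1, chr7:99353240-99353489, minus strand: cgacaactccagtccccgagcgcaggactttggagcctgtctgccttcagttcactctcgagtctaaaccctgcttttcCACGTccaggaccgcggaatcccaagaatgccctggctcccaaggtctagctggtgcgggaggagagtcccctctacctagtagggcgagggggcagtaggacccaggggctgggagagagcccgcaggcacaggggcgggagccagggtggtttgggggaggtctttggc
P4ha1 held 3 matches, Plod1 and Serpinh1 1 each. All 5 members with a RefSeq window held a match, Loxl4 with 1 and Plod3 with 4. Of 32851 such windows over all genes, 38.6% held at least 1 match, so a match is common and names no site. Other starts are annotated as well: 2 of 6 Plod1 transcripts, 1 of 3 P4ha1 transcripts and 1 of 7 Serpinh1 transcripts in GENCODE M21 begin within 50 bases of the start used.

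On GRCm38, as the tables list them, Loxl1 lies on chromosome 9 from 58287738 to 58313186, and Plod2 on the same chromosome from 92542223 to 92608428. Loxl2 spans 69609068 to 69695834 of chromosome 14, Loxl3 83034173 to 83052562 of chromosome 6, and Loxl4 42593982 to 42612813 of chromosome 19. Plod1 spans 147909753 to 147936767 of chromosome 4, Plod3 136987019 to 136996648 of chromosome 5, and Serpinh1 99345376 to 99353239 of chromosome 7. Lox is on chromosome 18. P4ha1 spans 59323296 to 59373304 of chromosome 10, the chromosome that also carries Col6a2. Loxl2 has a near-identical copy, the unprocessed pseudogene Gm21451 on chromosome 14 from 69390854 to 69480287. Of its 50-base windows, 84.2% occur in Loxl2 transcripts, and its TPM ran at 61.0 to 76.6% of that of Loxl2, so how reads were split between the pair is uncertain. Loxl3 overlaps Htra2 on the opposite strand, Plod3 overlaps Znhit1, and Loxl2 overlaps Gm27177. Whether counting used strand is not given in the sources used here, so reads from such pairs cannot be told apart.

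Serpinh1 was the most abundant of the set, with a mean of 41.8 TPM over the 32 libraries (7.03 to 103). P4ha1 followed at 12.5 TPM, then Lox at 9.25, Plod1 at 9.19 and Loxl2 at 8.54. Loxl1 averaged 5.11 TPM, Plod3 4.66, Plod2 3.25 and Loxl3 2.42. Loxl4 was the scarcest at 0.906 TPM and reached 1 TPM in 9 libraries only, against 29 for Loxl3. Neighbours in this order were not all distinct: Lox exceeded Plod1 in 10 of 32 libraries and Loxl1 exceeded Plod3 in 16. Serpinh1 exceeded P4ha1 in 31, and Loxl3 exceeded Loxl4 in all 32. Within groups Lox and Loxl4 scattered most, with median coefficients of variation of 39.9% and 38.3%, and Plod1 least, at 9.74%.

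**Figure D1:**
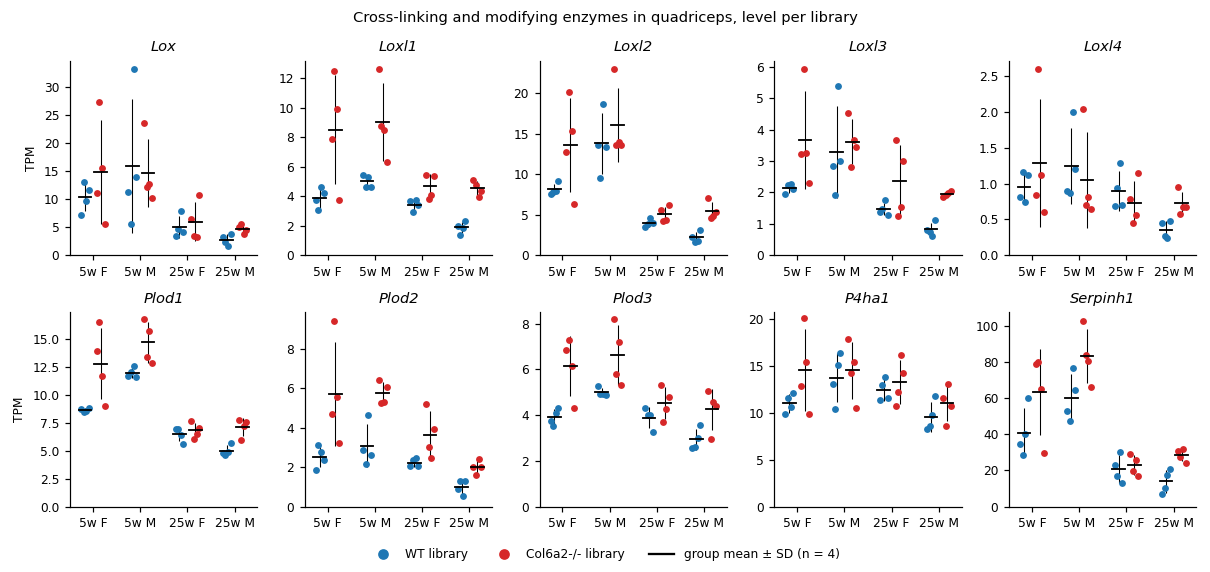
TPM of the 10 genes in each library (points), by age (5w, 25w) and sex (F, M), with the group mean and SD (black, n = 4); blue is WT and red Col6a2-/-. Levels are lower at 25 than at 5 weeks for most genes, and in 5-week Col6a2-/- females Loxl1 spreads from 3.73 to 12.5 TPM.

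Loss of Col6a2 went with more Loxl1 at both ages, and with more Loxl2 and Loxl3 at 25 weeks, while Lox and Loxl4 were not called at either age. Loxl1, a lysyl oxidase best known for its part in elastic fibres, had 3.70, 3.02, 4.58 and 4.20 TPM in 5-week WT females and 5.41, 4.62, 5.31 and 4.62 in WT males. In Col6a2-/- females it had 7.89, 12.5, 9.88 and 3.73 TPM, and in Col6a2-/- males 12.6, 8.73, 8.48 and 6.31. Replicate 4 of the Col6a2-/- females lay inside the WT range, and the other 7 Col6a2-/- libraries lay above every WT library. The mean at 5 weeks was 1.98 times the WT mean, and the log2 change was 0.79 (SE 0.14, adjusted p = 0.00021). At 25 weeks Loxl1 had 3.68, 2.88, 3.76 and 3.37 TPM in WT females and 1.97, 1.38, 1.84 and 2.29 in WT males. The Col6a2-/- females had 5.44, 3.8, 4.07 and 5.36 TPM and the males 5.10, 4.73, 3.94 and 4.34. Every Col6a2-/- library thus lay above every WT library, as it did for 0.663% of all genes, and no other member was separated in this way at 25 weeks. The mean was 1.74 times that of WT and the log2 change 0.65 (SE 0.14, adjusted p = 0.0087). At 5 weeks no member was fully separated, against 1.18% of all genes.

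Loxl2, an enzyme active on collagen IV of basement membranes, had 7.60, 7.85, 7.89 and 9.14 TPM in 5-week WT females and 12.7, 20.2, 15.4 and 6.31 in Col6a2-/- females. In 5-week males the WT values were 13.7, 9.56, 18.7 and 13.4 and the Col6a2-/- values 23.0, 13.6, 14.0 and 13.7, so the male groups overlapped. The change at 5 weeks was 0.40 (SE 0.16, adjusted p = 0.065) and passed the threshold, at 0.46 (adjusted p = 0.014), when replicates 2 and 4 of the Col6a2-/- females were left out. At 25 weeks Loxl2 rose by 0.66 (SE 0.16, adjusted p = 0.015). Its TPM was then 3.44, 3.84, 4.56 and 3.93 in WT females and 5.53, 4.16, 4.38 and 6.14 in Col6a2-/- females. In males of that age it was 2.26, 1.61, 1.77 and 3.05 in WT and 7.08, 4.53, 4.81 and 5.37 in Col6a2-/-, with no overlap. Summed with its copy Gm21451, the change was 0.40 at 5 weeks (adjusted p = 0.072) and 0.71 at 25 weeks (adjusted p = 0.013). Loxl3, a lysyl oxidase needed for palate and spine development, averaged 2.71 ± 1.15 TPM in young WT mice (SD, n = 8) and 3.65 ± 1.13 in young Col6a2-/- mice. That change of 0.34 was not called (adjusted p = 0.087). At 25 weeks Loxl3 had 1.39, 1.47, 1.75 and 1.29 TPM in WT females and 3.66, 1.25, 1.54 and 2.99 in Col6a2-/- females. In males it had 0.809, 0.725, 0.619 and 1.12 TPM in WT and 1.84, 1.9, 1.98 and 2.06 in Col6a2-/-, so females overlapped and males did not. The rise was 0.54 (SE 0.15, adjusted p = 0.031). This call was lost with no filter on TPM and in 9 of the fits that leave out 1 library (adjusted p up to 0.090), each time a 25-week one: replicate 2 or 4 of the WT females, 2 or 3 of the WT males, 1 or 4 of the Col6a2-/- females, or 1, 3 or 4 of the Col6a2-/- males.

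Lox, the enzyme that gave the family its name, differed more within groups than between genotypes at 5 weeks. It then had 7.21, 12.9, 9.54 and 11.5 TPM in WT females and 11.2, 5.50, 33.1 and 13.8 in WT males. The Col6a2-/- females had 11.1, 27.3, 15.5 and 5.46 TPM and the males 23.6, 12.2, 12.7 and 10.1, so the ranges almost coincide. The change was 0.20 at 5 weeks (95% confidence interval -0.38 to 0.77, adjusted p = 0.63) and 0.38 at 25 weeks (-0.19 to 0.96, adjusted p = 0.48). These intervals do not show that Lox was alike in the genotypes. Loxl4 changed by 0.003 at 5 weeks (-0.29 to 0.29) and 0.10 at 25 weeks (-0.19 to 0.39), at a level where the scale compresses changes.

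All 3 lysyl hydroxylases rose at 5 weeks in Col6a2-/- muscle, Plod2 most. Plod2, which hydroxylates lysines in the collagen telopeptides from which the stable hydroxylysine-derived cross-links form, had 1.88, 3.11, 2.78 and 2.35 TPM in WT females and 4.71, 9.44, 5.57 and 3.24 in Col6a2-/- females. In males it had 2.88, 2.16, 4.66 and 2.63 TPM in WT and 6.44, 5.27, 5.32 and 6.08 in Col6a2-/-. All 8 Col6a2-/- libraries exceeded the WT mean of their sex, and the lowest, female replicate 4, was the sole one inside the WT range. The mean ratio was 2.05 and the log2 change 0.81 (SE 0.14, adjusted p = 0.00015). Plod1, which acts on lysines of the helix, was nearly constant in young WT females at 8.77, 8.51, 8.59 and 8.84 TPM, and had 13.9, 16.6, 11.7 and 9.02 in Col6a2-/- females. In males it had 11.7, 12.0, 12.6 and 11.6 TPM in WT and 16.8, 13.4, 15.7 and 12.9 in Col6a2-/-, so neither sex overlapped. The change was 0.38 (SE 0.09, adjusted p = 0.0021). Under alternatives it ran from 0.18 to 0.45 and stayed called. Plod3, which also adds sugars to hydroxylysine, had 3.74, 3.54, 4.10 and 4.29 TPM in WT females and 6.83, 7.29, 6.16 and 4.29 in Col6a2-/- females. In males it had 5.29, 4.92, 4.94 and 4.90 TPM in WT and 8.22, 5.82, 7.20 and 5.31 in Col6a2-/-. Female replicate 4 was again the sole Col6a2-/- library inside the WT range. The rise was 0.43 (SE 0.10, adjusted p = 0.0024), and under alternatives it ran from 0.25 to 0.50 and stayed called.

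At 25 weeks Plod2 was the one lysyl hydroxylase called, with a rise of 0.55 (SE 0.14, adjusted p = 0.025). It had 2.04, 2.38, 2.47 and 2.04 TPM in WT females and 5.19, 3.04, 2.46 and 3.92 in Col6a2-/- females. WT males had 0.915, 1.28, 0.512 and 1.29 TPM and Col6a2-/- males 2.03, 1.58, 2.42 and 2.02. The genotypes overlapped in females through a single Col6a2-/- library at 2.46 TPM, and not in males. Plod1 changed by 0.25 (adjusted p = 0.093) and Plod3 by 0.29 (adjusted p = 0.087). Without replicates 2 and 4 of the 5-week Col6a2-/- females, which enter here only through the shared estimate of the spread, both were called, with adjusted p of 0.017 and 0.036.

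Serpinh1 and P4ha1, the chaperone and the prolyl hydroxylase subunit, were not called by genotype at either age. Serpinh1 had 34.9, 28.4, 40.4 and 60.3 TPM in 5-week WT females and 78.7, 80.3, 65.3 and 29.6 in Col6a2-/- females. In 5-week males it had 52.8, 47.3, 76.8 and 64.5 TPM in WT and 103, 83.9, 80.9 and 66.4 in Col6a2-/-. Its mean was 1.45 times WT, and the change of 0.52 (SE 0.21) had an adjusted p of 0.068. At 25 weeks the change was 0.63 (SE 0.21, adjusted p = 0.085). Without the 2 libraries named above, it was called at both ages, at 0.66 (adjusted p = 0.023) and 0.63 (adjusted p = 0.035). That pair was picked by the members' own values. P4ha1, a catalytic subunit of prolyl 4-hydroxylase, averaged 12.4 ± 2.34 TPM in 5-week WT mice (SD, n = 8) and 14.5 ± 3.48 in Col6a2-/- mice of that age. Its changes were 0.20 (95% interval -0.05 to 0.45) at 5 weeks and 0.13 (-0.12 to 0.38) at 25 weeks.

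In all, 4 of 10 members rose by genotype at 5 weeks, where 23.2% of all genes did, and 4 of 10 at 25 weeks, where 4.47% did. Loxl1 and Plod2 were called at both ages. The median change of the members was 0.39 at 5 weeks and 0.46 at 25 weeks, beside 0.15 and 0.08 over all genes. Leaving out replicate 4 of the 5-week Col6a2-/- females raised both counts to 7. At 25 weeks 2 members were left when any 1 of 6 libraries was left out, namely replicate 4 of the WT females, replicate 3 of the WT males, replicates 1 or 4 of the Col6a2-/- females, or replicates 1 or 3 of the Col6a2-/- males. Loxl1 at both ages and Plod2 at 5 weeks stayed called under every alternative run, while Plod2 at 25 weeks had an adjusted p of 0.055 to 0.075 without any 1 of those 6 libraries and 0.076 with no filter on TPM. No member's genotype change differed between ages in limma (0 of 10, none at an unadjusted p under 0.05 either), as against 0.492% of all genes.

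**Figure D2:**
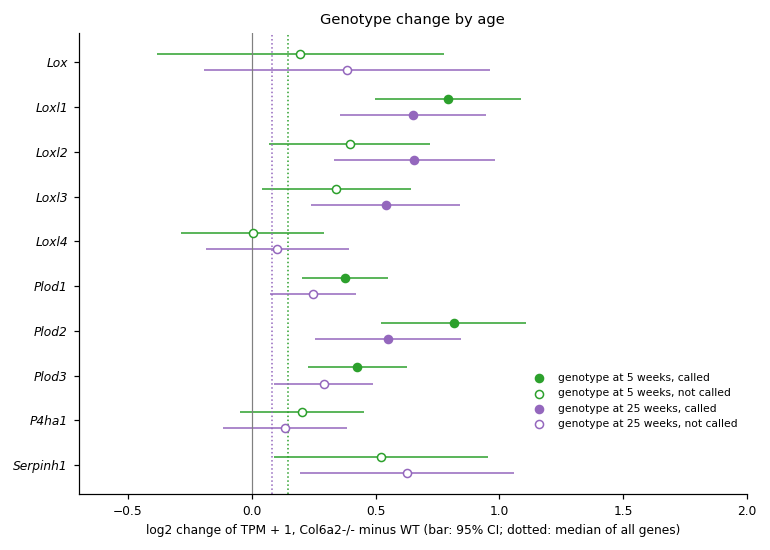
Log2 change of TPM + 1 by genotype (Col6a2-/- minus WT, x axis) for each gene at 5 weeks (green) and 25 weeks (purple), with 95% confidence intervals; filled points are called and dotted lines mark the median of all genes, 0.15 and 0.08. Loxl1 and Plod2 are filled at both ages, and the widest intervals belong to Lox.

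Within each sex, members were called in young females, young males and older males, and no difference between the sexes was itself called. In 5-week females Loxl1, Plod1, Plod2 and Plod3 rose (4 of 10, 12.3% of all genes), and in 5-week males Loxl1 and Plod2 (2 of 10, 4.55%). All 4 calls in females were lost from only the libraries compared, and without replicate 2 of the Col6a2-/- females (adjusted p up to 0.21). In 5-week males the Loxl1 call was lost in 10 of 42 alternative fits, 7 of them leaving out 1 library (adjusted p up to 0.20), and the Plod2 call in 4 (up to 0.10). Both were lost without replicate 2 or 4 of the WT males or replicate 1 of the Col6a2-/- males. Without the pair of libraries named above, Loxl2 was called in 5-week females too (0.72, adjusted p = 0.027). In these females Loxl3, Plod1, Plod2 and Plod3 had every Col6a2-/- library above every WT library, as did 8.53% of all genes. In 5-week males Loxl1, Plod1, Plod2 and Plod3 had every Col6a2-/- library above every WT library, as did 9.32% of all genes. In 25-week males Loxl1, Loxl2, Plod1 and Serpinh1 rose (4 of 10, 2.91% of all genes). The Plod1 change of 0.43 had an adjusted p of 0.047 and was not called in 27 of 42 alternative fits, 24 of them leaving out 1 library (adjusted p up to 0.18). Without the pair of libraries named above, Loxl3, Plod2 and Plod3 were called as well (adjusted p of 0.019, 0.024 and 0.040). Serpinh1 then had 7.03, 10.4, 17.6 and 20.7 TPM in WT and 31.0, 27.4, 31.6 and 24.2 in Col6a2-/-, a change of 1.08 (SE 0.30, adjusted p = 0.043) that was not called in 14 of 42 alternative fits (adjusted p up to 0.15). Separation was complete there for 7 members (Loxl1, Loxl2, Loxl3, Loxl4, Plod1, Plod2 and Serpinh1), as for 13.9% of all genes.

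In 25-week females limma called no member (0 of 10, 1 at an unadjusted p under 0.05), nor did it call many genes at all (0.0078%). Loxl1 was the 1 member of 10 whose Col6a2-/- libraries all lay above the WT ones there, from 3.8 TPM against at most 3.76, as for 3.8% of all genes. Serpinh1 had 23.3, 16.9, 30.0 and 12.9 TPM in WT and 29.2, 19.7, 25.9 and 16.7 in Col6a2-/-, which overlap fully, with a change of 0.17. Genotype by sex was called for no member over both ages (0 of 10 at an unadjusted p under 0.05 too, 0.0156% of all genes) and for none at 5 weeks (0% of all genes, limma). At 25 weeks it was called for none as well (0.0156% of all genes), with Loxl1, Loxl2, Plod1 and Serpinh1 at an unadjusted p under 0.05 and an adjusted p of 0.99. The largest such difference, males minus females, was 0.91 for Serpinh1 (SE 0.42). The change of this difference from 5 to 25 weeks was called for no member (0 of 10, Loxl2 and Plod1 at an unadjusted p under 0.05, adjusted p of 0.98, 0% of all genes, limma). Sex alone was called for no member (0 of 10, Plod2 alone at an unadjusted p under 0.05, 3.05% of all genes). Counts within 1 sex rest on single libraries. In 5-week females the count was 0 without Col6a2-/- replicate 2 and 8 without Col6a2-/- replicate 4. In 25-week males it was 0 without WT replicate 2 or without Col6a2-/- replicate 1, and 7 without replicate 4 of the 5-week Col6a2-/- females.

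**Figure D3:**
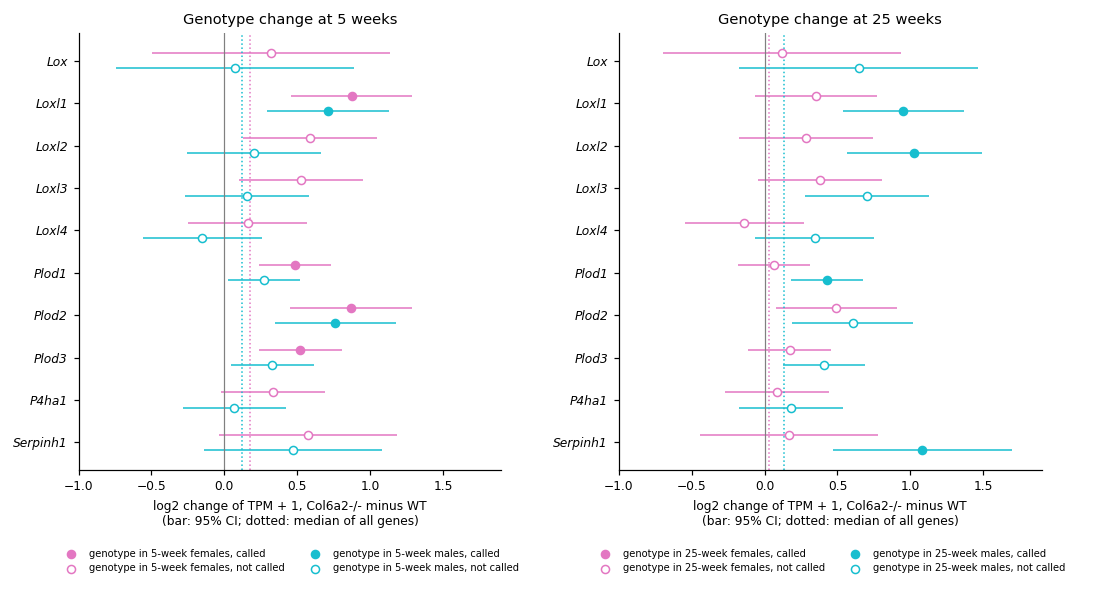
Log2 change of TPM + 1 by genotype in females (pink) and males (cyan) at 5 weeks (left) and 25 weeks (right), with 95% confidence intervals; filled points are called and dotted lines mark the median of all genes. At 25 weeks the male points of Loxl1, Loxl2, Plod1 and Serpinh1 are filled and every female point is open.

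Markers of other cells moved with genotype in the same libraries. All 8 macrophage genes were higher in Col6a2-/- at both ages. Their summed TPM ran from 69.7 to 73.1 in WT and 107 to 376 in Col6a2-/- females at 5 weeks, and from 76.9 to 117 and 262 to 374 in males. At 25 weeks it ran from 69.8 to 123 and 122 to 223 in females, and from 46.0 to 73.8 and 119 to 198 in males. Of 10 fibroblast genes, 5 were higher at each age. Their sums were 665 to 815 against 607 to 1226 TPM in 5-week females, 584 to 898 against 833 to 1080 in 5-week males, 595 to 840 against 808 to 1216 in 25-week females, and 458 to 757 against 794 to 1198 in 25-week males. Of 10 muscle fibre genes 4 were lower at 5 weeks and 0 at 25 weeks, and of 7 tenocyte genes none was called by genotype. With the sexes pooled, 4 of 8 endothelial genes and 2 of 7 smooth muscle and pericyte genes were higher at 5 weeks, and none at 25 weeks. Over all genes, 23.2% were higher at 5 weeks and 4.47% at 25 weeks, while 274 and 30 of 12817 were lower. The endothelial sum ran at 5 weeks from 69.3 to 88.3 TPM in WT and 82.5 to 112 in Col6a2-/- females, and from 80.4 to 121 and 103 to 132 in males. The smooth muscle and pericyte sum did not overlap in 5-week females (152 to 169 against 183 to 204 TPM). It overlapped in 5-week males (157 to 235 against 203 to 219) and in 25-week females (151 to 193 against 125 to 168). In 25-week males, where 4 members were called, 6 of 8 macrophage, 3 of 10 fibroblast, 1 of 8 endothelial and 1 of 7 smooth muscle and pericyte genes were higher. Over all genes 2.91% were higher in these males. There the sums of WT and Col6a2-/- did not overlap for tenocyte genes (19.3 to 65.7 against 68.9 to 93.0 TPM, median change 0.83), endothelial genes (64.1 to 78.8 against 78.9 to 95.5) or smooth muscle and pericyte genes (134 to 149 against 161 to 223). Adipocyte sums overlapped there (88.4 to 259 against 194 to 318 TPM), with a median change of 1.24 and 0 of 6 called. With the sexes pooled, none of the 6 was called at either age. Their median changes were then 0.38 at 5 weeks and 0.68 at 25 weeks. Tenocyte sums overlapped in the other 3 pairs of groups, at 101 to 173 against 66.1 to 380 TPM in 5-week females, 56.7 to 301 against 88.4 to 242 in 5-week males, and 77.8 to 175 against 77.1 to 222 in 25-week females. No macrophage, fibroblast or tenocyte gene was at 0 in a whole group. Their part in the changes of the enzymes was not tested. In bulk tissue, fewer or more cells of a type and less or more RNA per cell cannot be told apart.

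Between 5 and 25 weeks most of the set fell. In each genotype 8 of 10 members fell, beside 15.3% of all genes in WT and 28.8% in Col6a2-/-, and Loxl4 and P4ha1 were the pair not called. Loxl4 was called in WT in 10 of 41 alternative fits (adjusted p down to 0.0073). Among them was the fit without replicates 2 and 4 of the 5-week Col6a2-/- females, at -0.38 (adjusted p = 0.020). In Col6a2-/- muscle Loxl4 was called in 2 of 41 alternative fits and P4ha1 in 2 of 42. Loxl2 fell by 1.55 in WT (SE 0.16, adjusted p = 4.81e-08), from a mean of 11 ± 3.94 TPM (SD, n = 8) to 3.06 ± 1.08. In Col6a2-/- muscle it fell by 1.29 (adjusted p = 4.63e-07), from 14.9 ± 5.02 to 5.25 ± 0.991 TPM. Serpinh1 fell by 1.54 in WT (SE 0.21, adjusted p = 4.78e-06) and by 1.44 in Col6a2-/- (adjusted p = 6.75e-06). Its WT values ran from 28.4 to 76.8 TPM (median 50.1) at 5 weeks and from 7.03 to 30.0 (median 17.2) at 25 weeks. Lox fell by 1.45 in WT (SE 0.28, adjusted p = 0.00050), a 5-week mean 3.39 times the later one.

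Plod1 fell by 0.75 in WT (SE 0.09, adjusted p = 2.71e-07) and by 0.87 in Col6a2-/- (adjusted p = 7.74e-09). In WT it ran from 8.51 to 12.6 TPM at 5 weeks and from 4.65 to 6.94 at 25 weeks, and in Col6a2-/- from 9.02 to 16.8 and from 5.93 to 7.71. The ages overlapped in neither genotype. Loxl2 and Loxl3 were likewise separated in WT, which makes 3 of 10 (2.3% of all genes), and Plod1 alone in Col6a2-/- (1.88% of all genes). Plod3 had the smallest fall that was called, 0.31 in WT (adjusted p = 0.022), and it was not called once values were rescaled without mitochondrial and Rn7s genes (adjusted p = 0.12) or without replicate 4 of the 25-week WT females (adjusted p = 0.056). Loxl1, Loxl3 and Plod2 fell by 0.60, 0.76 and 0.57 in WT. In WT females alone, the 5-week mean was 1.13 times the 25-week mean for Loxl1 and Plod2, 1.01 times for Plod3 and 1.06 times for Loxl4. In WT males these ratios were 2.67, 3.08, 1.71 and 3.50. P4ha1 averaged 12.4 ± 2.34 and 11 ± 1.99 TPM in WT at the earlier and later age, a change of -0.16 (95% interval -0.41 to 0.09). Its mean was higher at 25 than at 5 weeks in WT females (12.4 against 11 TPM) and lower in WT males (9.56 against 13.7 TPM). Markers of other cells changed with age as well. Macrophage genes fell in 1 of 8 cases in WT and 8 of 8 in Col6a2-/-, fibroblast genes in 4 and 3 of 10, tenocyte genes in 3 of 7 in each genotype, endothelial genes in 2 and 4 of 8, smooth muscle and pericyte genes in 3 and 4 of 7, Schwann cell genes in 2 and 4 of 4, and muscle fibre genes in 2 of 10 in each. Over all genes 15.3% fell in WT and 28.8% in Col6a2-/-, so several of these counts are near or below that share. The fibroblast gene Gsn rose in Col6a2-/-, by 0.58 (adjusted p = 0.0019), and none of 6 adipocyte genes was called, with median changes of 0.33 in WT and 0.63 in Col6a2-/-. Their part in the fall of the enzymes was not tested.

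The fall in WT was steeper in males for Loxl2 and Plod1 (2 of 10 members, 2.38% of all genes). Loxl2 in WT went from 8.12 ± 0.696 to 3.94 ± 0.464 TPM in females and from 13.8 ± 3.76 to 2.17 ± 0.649 in males (SD, n = 4), and the falls differed by -1.33 (SE 0.32, adjusted p = 0.026). Plod1 went from 8.68 ± 0.151 to 6.47 ± 0.634 TPM in females and from 12.0 ± 0.437 to 5.00 ± 0.468 in males, a difference of -0.74 (SE 0.17, adjusted p = 0.024). In WT males, 9 of 10 members had every 25-week library below every 5-week library, where 31.8% of all genes did, and 3 of 10 in WT females, where 3.75% did. All 10 differences pointed the same way, with a median of -0.87 beside -0.27 over all genes. Markers of other cells had negative medians in this comparison too: -1.33 for tenocyte genes (0 of 7 called), -0.93 for macrophage genes (1 of 8), -0.60 for fibroblast genes (1 of 10), -0.52 for endothelial genes (2 of 8) and -0.21 for muscle fibre genes (0 of 10). Schwann cell genes had -1.11 (0 of 4), adipocyte genes -0.61 (0 of 6) and smooth muscle and pericyte genes -0.56 (0 of 7). Their part in it was not tested. The 2 calls were lost when values were rescaled without mitochondrial and Rn7s genes, and the count was 0 without replicate 1 or 2 of the 5-week WT females, replicate 1 of the 5-week WT males or replicate 2 of the 25-week WT males. It was 1 without replicate 3 of the 5-week WT males, of the 25-week WT males or of the 25-week WT females, or without replicate 1 of the 25-week WT females. It was 6 without replicate 2 or replicate 4 of the 5-week Col6a2-/- females, and 8 without both, all but Lox and Loxl4.

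The main substrates of these enzymes were lower at 25 weeks by a larger factor than the enzymes. The summed TPM of Col1a1, Col1a2 and Col3a1, the chains of the main fibrillar collagens, in WT was 878 ± 424 (SD, n = 8) at the earlier age and 108 ± 48.6 at the later one, a ratio of 0.123. In WT females it went from 615 ± 195 to 143 ± 38.9 TPM (SD, n = 4), a ratio of 0.233, and in WT males from 1140 ± 443 to 73.0 ± 27.1 TPM, a ratio of 0.064. The 5 lysyl oxidases together went from 32.3 ± 14.0 to 11.3 ± 4.38 TPM, a ratio of 0.351, and the 3 lysyl hydroxylases from 17.6 ± 2.82 to 10.8 ± 2.21 TPM, a ratio of 0.612. Per 100 TPM of collagen, lysyl oxidases therefore stood at 3.9 ± 0.932 TPM at 5 weeks and 11 ± 1.95 at 25 weeks, with no overlap between ages (2.88 to 5.59 against 7.53 to 13.8). Lysyl hydroxylases went from 2.30 ± 0.773 to 11.4 ± 3.88 TPM per 100 TPM of collagen. P4ha1 went from 1.6 ± 0.511 to 11.6 ± 3.93, which was 7.26 times the earlier mean. By sex, the means of the 2 ages were 4.38 and 10.8 for lysyl oxidases and 2.64 and 9.55 for lysyl hydroxylases in WT females, and 3.41 and 11.1, and 1.96 and 13.2, in WT males. For P4ha1 they were 1.91 and 9.16 in WT females, 4.80 times, and 1.29 and 14.0 in WT males, 10.9 times.

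By genotype, these mean ratios lay within 1 SD of each other at 5 weeks for lysyl oxidases and hydroxylases, and the means were lower in Col6a2-/- at 25 weeks. At 5 weeks lysyl oxidases had 3.9 ± 0.932 TPM per 100 TPM of collagen in WT and 3.73 ± 0.679 in Col6a2-/-, and lysyl hydroxylases 2.30 ± 0.773 and 2.41 ± 0.782. At 25 weeks lysyl hydroxylases had 11.4 ± 3.88 in WT and 7.5 ± 1.63 in Col6a2-/-, and P4ha1 11.6 ± 3.93 and 6.57 ± 2.33. Collagen itself was then 108 ± 48.6 TPM in WT and 196 ± 49.7 in Col6a2-/-. Col3a1 made up most of that difference, at 50.7 and 118 TPM, beside 19.0 and 24.4 for Col1a1 (adjusted p = 0.32) and 38.3 and 53.9 for Col1a2 (adjusted p = 0.21). At 5 weeks Col3a1 had 324 and 662 TPM, Col1a1 227 and 201, and Col1a2 326 and 332. With the sexes pooled, the ranges of both ratios overlapped between the genotypes. In 25-week males they did not: lysyl hydroxylases ran from 9.61 to 17.4 in WT and from 5.03 to 8.09 in Col6a2-/-, and P4ha1 from 10.7 to 17.4 and from 3.94 to 7.44. In 25-week females the ranges overlapped, with means of 9.55 and 8.38 for lysyl hydroxylases and 9.16 and 7.65 for P4ha1. These ratios are described without a test.

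**Figure D4:**
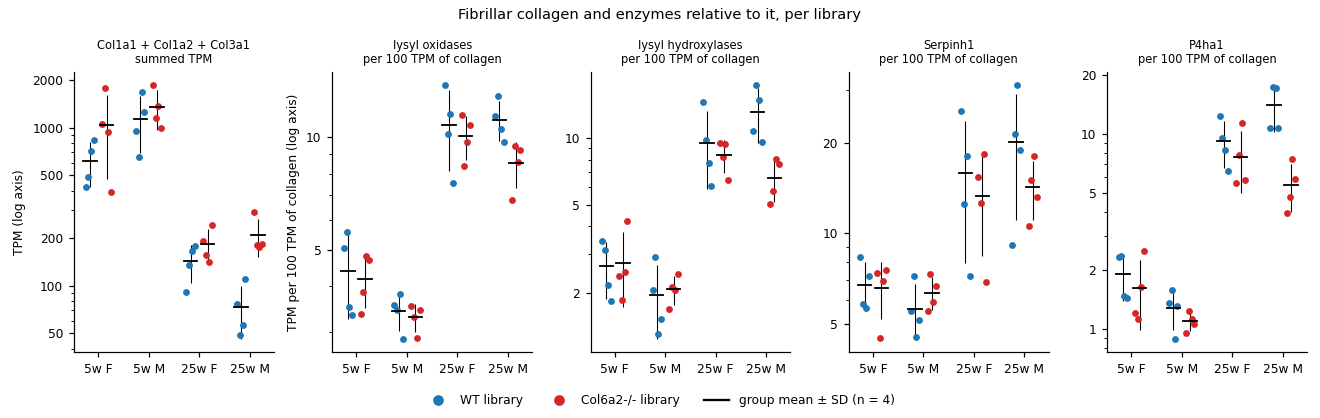
Summed TPM of Col1a1, Col1a2 and Col3a1 (left) and the TPM of lysyl oxidases, lysyl hydroxylases, Serpinh1 and P4ha1 per 100 TPM of that sum, per library on log axes, with group mean and SD (n = 4). Collagen drops with age to 0.233 of its level in WT females and 0.064 in WT males, and every enzyme ratio is higher at 25 weeks on average.

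The make-up of the families is described by shares of their summed TPM. At 5 weeks Lox, Loxl1 and Loxl2 took 38.5 ± 8.45, 14.9 ± 4.04 and 34.7% of the lysyl oxidase TPM in WT. In Col6a2-/- muscle they took 33.0 ± 3.51, 20.5 ± 1.79 and 34.9% (SD, n = 8). The Loxl1 share was thus 5.63 points higher in Col6a2-/- at 5 weeks and 2.18 points higher at 25 weeks, where it was 23.9 ± 4.07% in WT and 26.1 ± 2.87% in Col6a2-/-. The Plod2 share of lysyl hydroxylase TPM was 15.9 ± 3.54% in WT and 22 ± 3.46% in Col6a2-/- at 5 weeks, and 14.5 ± 4.47% and 19.5 ± 5.54% at 25 weeks. Ranges of the Loxl1 and Plod2 shares overlapped between genotypes at both ages. The shares are descriptions without a test, and those of lysyl oxidases carry the uncertainty of Loxl2.

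Other genes of the pathway are given from lists chosen by role. Among 8 substrates, 4 rose by genotype at each age (23.2% of all genes at 5 weeks, 4.47% at 25 weeks), and all 8 fell with age in both genotypes. Col3a1 rose by 1.04 at 5 weeks (adjusted p = 0.0011) and 1.25 at 25 weeks (adjusted p = 0.0013), and Eln, which encodes elastin, by 0.98 and 0.81. The median change of the list was 0.52 at 5 weeks and 0.68 at 25 weeks. Among 16 other genes of collagen folding and modification, 7 rose at 5 weeks and 1 at 25 weeks, while 11 fell with age in WT, beside 23.2, 4.47 and 15.3% of all genes. Ppib, a prolyl isomerase, was the one called at 25 weeks, at 0.44 (adjusted p = 0.042). P3h1, its partner in prolyl 3-hydroxylation, rose by 0.41 at 5 weeks (adjusted p = 0.0078) and changed by 0.09 at 25 weeks. Fkbp10, which supports telopeptide lysine hydroxylation by Plod2, changed by 0.27 at each age (adjusted p = 0.18 and 0.32) and fell by 1.06 with age in WT.

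Among 14 partners of cross-linking and genes of copper supply, 9 rose at 5 weeks and 3 at 25 weeks, beside 23.2 and 4.47% of all genes. Postn, a matricellular protein that promotes cross-linking by lysyl oxidase, rose by 1.97 at 5 weeks (SE 0.30, adjusted p = 2.10e-05) and by 1.5 at 25 weeks (adjusted p = 0.0036). Its mean went from 32.6 to 133 TPM at 5 weeks and from 6.45 to 21.1 TPM at 25 weeks. Lum, a collagen-binding proteoglycan, rose by 0.75 and 0.64. Lum and Dcn are also among the fibroblast genes counted above, and Fmod among the tenocyte genes, so the counts of these lists share genes. Tgm2, a transglutaminase that cross-links proteins by another route, rose by 0.45 at 5 weeks (adjusted p = 0.00027). Among 9 genes of procollagen export and trimming, 3 rose at 5 weeks and 1 at 25 weeks, the latter being Pcolce, an enhancer of procollagen cleavage, at 0.63 (adjusted p = 0.049). The same all-gene shares stand beside these counts, and the median change of the list at 5 weeks, 0.07, was below the 0.15 over all genes. Bmp1, a protease that also activates pro-lysyl oxidase, rose by 0.39 at 5 weeks (adjusted p = 0.024).

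Of 11 hypoxia targets outside the set, 1 rose at each age: Kdm3a at 5 weeks, by 0.43 (adjusted p = 0.0051), and Egln3 at 25 weeks, by 0.64 (adjusted p = 0.030). Over all genes 23.2% rose at 5 weeks and 4.47% at 25 weeks. The median change of that list was 0.08 at 5 weeks and 0.10 at 25 weeks, beside 0.15 and 0.08 over all genes. With age in WT, 1 of the 11 rose and 2 fell, beside 573 and 1963 (15.3%) of the 12817 genes tested.

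Across libraries the members moved together within groups. After group means were subtracted, the 45 pairs of members had Pearson r from 0.36 to 0.90 with a median of 0.65 (32 libraries, log2 scale). Libraries share depth and the large mitochondrial share, and even the summed muscle fibre genes had r of 0.21 to 0.58 with the members. Of the members, Lox had the highest r with the summed tenocyte genes, 0.91, followed by Loxl4 at 0.83, Loxl2 at 0.74 and Loxl3 at 0.71, while Plod3 had 0.28 and Serpinh1 0.19. With the macrophage sum, r ran from 0.39 for Serpinh1 to 0.78 for Plod1, and was 0.77 for Loxl2, 0.74 for Loxl1 and 0.70 for Plod3. With the fibroblast sum it ran from 0.37 for Serpinh1 to 0.79 for Loxl2, above the 0.74 of Loxl2 with the tenocyte sum. Tenocytes are the collagen-making cells of tendon. The WT male at 33.1 TPM of Lox had the highest tenocyte sum of the WT libraries, 301 TPM, and the Col6a2-/- female at 27.3 TPM had 380. The lowest Lox value, 1.52 TPM in a 25-week WT male, came with the lowest tenocyte sum, 19.3 TPM. With age in WT, 3 of 7 tenocyte genes fell, Tnmd by 2.11, and their part in the fall of Lox was not tested.

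**Figure D5:**
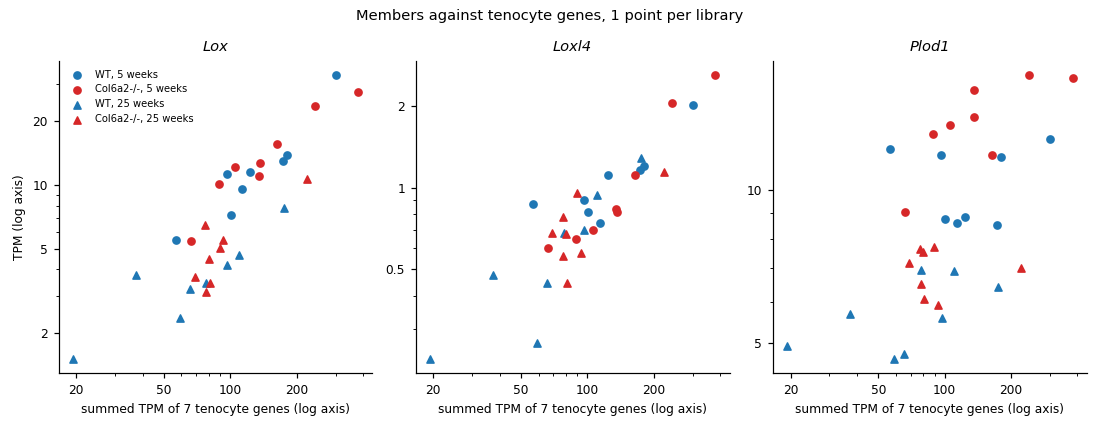
TPM of Lox, Loxl4 and Plod1 (y axes, log) against the summed TPM of 7 tenocyte genes (x axes, log), 1 point per library; circles are 5 weeks, triangles 25 weeks, blue WT and red Col6a2-/-. Lox and Loxl4 follow the tenocyte sum (r of 0.91 and 0.83 after group means), and Plod1 separates mainly by age (r of 0.44).

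By Pearson r over the 32 libraries, the genes most like Lox were Ptgis, Pdgfrl and Tnc, with r of 0.96, 0.94 and 0.94, and 0.92, 0.86 and 0.93 after group means were subtracted. Tnc encodes tenascin-C, a matrix protein of tendon and of muscle injury. For Loxl1 they were Cd44, Pdia6 and Bgn (r of 0.96 each), and for Loxl2, after its copy Gm21451 at 0.998, Col5a1 and Col6a3 (0.99 and 0.98). Loxl3 was closest to Fat1, Col6a1 and Pcsk5 (0.93, 0.92 and 0.92), and Loxl4 to Ptx4, Cpxm2 and Pamr1 (0.90, 0.90 and 0.89). For Plod1 they were Igfbp7, Col4a2 and Maged1 (0.98, 0.98 and 0.97), and for Plod2 Sulf1, Adcy7 and Gm6767 (0.93, 0.92 and 0.92). Plod3 was closest to Arhgdia, Pdia4 and Calr (r of 0.96 each), the latter pair being chaperones of the endoplasmic reticulum. Serpinh1 was closest to Col4a2, Col4a1 and Col3a1 (r of 0.94 each, and 0.74, 0.74 and 0.63 after group means). P4ha1 had the loosest neighbours, Snrpd2, Glt8d1 and Lats1 (0.86, 0.85 and 0.85).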

How the data were processed

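The deposited tables hold 1 library each with coverage, FPKM and TPM per gene, per the file headers, all computed by the authors. The submitters' processing notes name FastQC, MultiQC, Trimmomatic, HISAT2, SAMtools, StringTie and the build GRCm38 (mm10), without order or settings. The coverage signal and FPKM values of the authors served only to infer relative depth, as the most common ratio of coverage to FPKM, and to check family shares. The deposited TPM was summed per gene ID; TPM are not read counts, so no count test was run. Genes had to reach 1 TPM in 4 or more libraries, which left 12817, and their log2(TPM + 1) was fitted with limma 3.58.1 (R 4.3.3, 8 group means, eBayes with trend, two-sided, Benjamini-Hochberg over all genes, 12 comparisons plus genotype by sex at each age and its difference between ages, added after seeing the data). This scale understates changes of low genes. The test was tested on simulated data, and the outcome is not given here. No libraries were identical (highest r 0.984).

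The members and lists were chosen with earlier results of these data known. Named genes were all members, at most 4 per other list by smallest p for genotype at 5 weeks plus the smallest for age in WT, and the 3 genes most like each member. Gsn, Col1a1 and Col1a2 fall outside this rule and were named after their values were seen. Alternatives changed pseudocount, filter, scaling, samples, depth and replicate block. Plots were made with matplotlib 3.10.9 in Python 3.11.15 with pandas 2.3.3 and numpy 2.4.6.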

Additional observations from a re-analysis of the deposited data

Results flagged for a closer look

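Among 80 groups of 4 libraries checked for a value far from the rest, 3 had one, where chance gives about 1 in 20. Replicate 1 of the 5-week Col6a2-/- males stood above its group for Loxl2, at 23.0 TPM, and for Loxl4, at 2.05 TPM, and it held the highest value of its group for all 10 members. Replicate 1 of the 5-week WT males stood above its group for Plod3, at 5.29 TPM beside 4.90 to 4.94 in the other 3. The fall with age in WT differed between the sexes for Loxl2, by -1.33, and for Plod1, by -0.74 (males minus females, limma, log2 scale).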

How the results depend on the processing

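No called change reversed direction under any alternative. Over all members and comparisons, 4803 values under alternatives stayed on their side of the threshold, of which 4697 kept their sign and 106, none of them called, did not. Another 92 passed the threshold and 103 no longer did. The cause of each move below was not tested. By genotype at 25 weeks, 2 members were called with no filter on TPM, 7 with inferred depth as a covariate, and 7 without replicates 2 and 4 of the 5-week Col6a2-/- females, a choice made after seeing the data. In 5-week females 0 were called from only the libraries compared. In 5-week males the count was 1 with a pseudocount of 0.1, 1 with no filter, 4 after rescaling without mitochondrial and Rn7s genes, and 0 with depth. In 25-week males it was 2 with no filter, 2 after rescaling, and 7 without those 2 libraries. For age by sex in WT it was 5 with a pseudocount of 0.1, 1 with no filter, 0 after rescaling, 6 with depth, 8 from only the libraries compared, and 8 without the 2 libraries. Sex was called for 1 member (Plod2) under quantile normalization.

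Leaving out 1 library at a time gave counts of 4 to 7 by genotype at 5 weeks, 2 to 7 at 25 weeks, 0 to 8 in 5-week females, 0 to 2 in 5-week males and 0 to 7 in 25-week males. The counts were 7 to 9 for age in WT, 8 to 10 for age in Col6a2-/- and 0 to 6 for age by sex in WT, and stayed at 0 in 25-week females, for genotype by age, genotype by sex and sex. In 5-week males the count was 0 without WT replicate 2 or 4 or Col6a2-/- replicate 1, and 1 without WT replicate 1 or 3 or Col6a2-/- replicate 2 or 3. In 25-week males it was 1 without WT replicate 3 and 2 without WT replicate 1, Col6a2-/- replicate 3 or 4, replicate 1 or 3 of the 5-week WT females, or replicate 3 of the 5-week Col6a2-/- males.

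Comparisons over all 8 groups have no version restricted to the libraries compared, and with at least 5 TPM Loxl3 and Loxl4 were not tested. Replicate numbers gave little sign of pairing: same-numbered libraries had a median r of 0.03 and others -0.01. An r over 0.1 was found in 35 of 112 same-numbered pairs and in 65 of 336 others. With the replicate block, 4 members were called at 5 weeks and 4 at 25 weeks, the same genes as without it, and no member's call changed in any comparison. Over all genes, calls by genotype at 5 weeks went from 3253 to 1553 with at least 5 TPM (fewer genes tested) and 1907 from only the libraries compared. At 25 weeks they went from 603 to 343 with no filter, 344 with at least 5 TPM, 1384 with size factors, 1183 with depth, 1177 from only the libraries compared and 1249 without the 2 libraries. Leaving out 1 library gave 2274 to 4751 and 271 to 996. Low TPM of Loxl3 and Loxl4 and 4 mice a group limit precision.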
